A study of Arabidopsis thaliana with 16 samples.

Results

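AT1G16850 is a protein-coding gene on chromosome 1 of Arabidopsis thaliana that the annotation used here names only by its locus number and to which it assigns no role. It was chosen from these arrays because its transcript was induced less by salt in the cpc try double mutant than in the other 3 genotypes. It is 1 gene, read by 1 probe set (256114_at), of 9456 genes that could be named among 17059 probe sets tested.

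Transcripts were measured on 16 Affymetrix ATH1 arrays of root tips from 5-day-old seedlings in the Columbia background, with 2 biological replicates for each of 8 groups. The genotypes were the cpc-1 try-82 double mutant, the wer-1 myb23-1 double mutant, the scm-2 mutant and the wild type, called cpc try, wer myb23, scm and wild type below. Each was moved for 1 hour to medium with 140 mM NaCl or to standard medium. Every array holds the pooled tips, cut about 5 mm above the root tip, of about 30 roots. In such whole-tip samples, fewer cells of a type and less RNA per cell cannot be told apart.

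All groups share the Columbia ecotype and the same sucrose-containing agar, and the labels name mutant alleles without saying what each lesion does to the transcript. CAPRICE (CPC) and TRIPTYCHON (TRY) are small MYB proteins that move between epidermal cells and let them become hair cells, and roots without both are nearly hairless. WEREWOLF and MYB23 are MYB proteins of the non-hair fate, and the receptor-like kinase SCRAMBLED (SCM) passes positional cues to the epidermis. High salt draws water from root cells and loads them with sodium. The hormone abscisic acid, which builds up under water deficit, acts through protein kinases and transcription factors to switch on genes for proteins that protect drying cells.

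The labels hold a conflict that touches the groups. For the mutant arrays titled as standard medium, the growth medium entry names NaCl, and for both media of cpc try and scm it gives 4 days where the age entry gives 5. The titles and descriptions were followed. The transcript of TRY, the only mutated gene named in the annotation used here, was high in the arrays labelled cpc try, with 501 and 481 signal units on salt and 751 and 870 on standard medium. In the other 12 arrays TRY lay between 1.90 and 49.7, so the 4 arrays labelled cpc try stood apart from all others in this transcript, and the genotype names below are those of the labels. After the authors' scaling, the trimmed mean signal was 250.03 on every array.

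On salt, AT1G16850 in cpc try reached 46.0% of the mean level of the other genotypes, and on standard medium it was higher in cpc try than in any other array. The values below are MAS5 signals, in arbitrary units on a linear scale. On salt the cpc try arrays read 536 and 479. The wer myb23 arrays read 1109 and 1259, the scm arrays 1096 and 996, and the wild type arrays 918 and 1239.9. Both cpc try arrays thus lay below all 6 arrays of the other genotypes. The wild type range took in both scm arrays and overlapped that of wer myb23, while wer myb23 and scm did not overlap.

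On standard medium cpc try stood at the other end. The cpc try arrays read 194 and 219, the wer myb23 arrays 131 and 93.8, the scm arrays 181 and 114, and the wild type arrays 75.4 and 82.9. Both cpc try arrays lay above the other 6, scm and wer myb23 overlapped, and both wild type arrays lay below all others. In each genotype both salt arrays lay above both standard arrays.

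**Figure D1:**
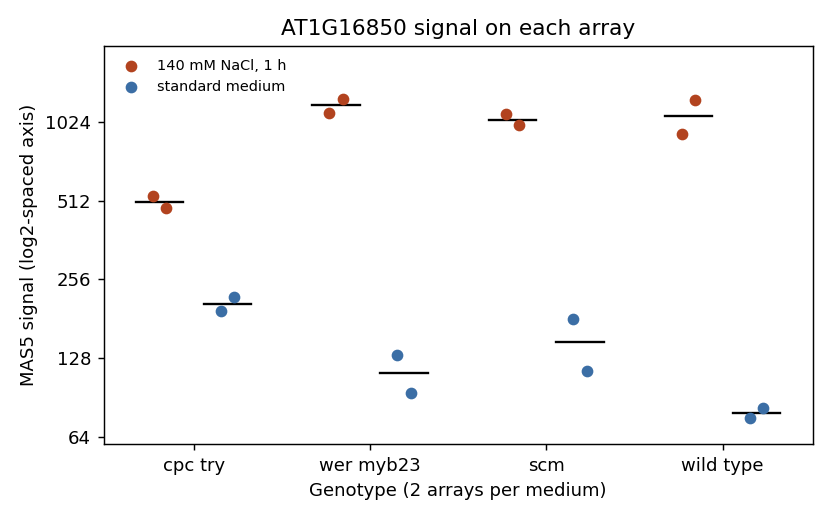
MAS5 signal of AT1G16850 (log2-spaced axis) on each of the 16 arrays, by genotype, with salt arrays in red left of standard arrays in blue; dots are arrays and bars are means of 2. The cpc try salt arrays (536 and 479) lie below the other 6 salt arrays, and the cpc try standard arrays (194 and 219) above the other 6 standard arrays.

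The mean signal was 507 ± 39.9 on salt and 207 ± 17.8 on standard medium in cpc try, a ratio of 2.46 (SD, n = 2 each). In wer myb23 it was 1184 ± 106 on salt and 112.5 ± 26.4 on standard medium, a ratio of 10.5. In scm it was 1046 ± 70.7 and 147.5 ± 47.0, a ratio of 7.09, and in wild type 1079 ± 228 and 79.1 ± 5.30, a ratio of 13.6. No ratio of a cpc try salt array to a cpc try standard array exceeded 2.76, and the lowest such ratio in another genotype was 5.51, in scm. In signal units, the salt mean exceeded the standard mean by 301 in cpc try, against 1071 in wer myb23, 898 in scm and 999.8 in wild type.

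Ranked by mean signal, the 8 groups ran from wer myb23, wild type, scm and cpc try on salt to cpc try, scm, wer myb23 and wild type on standard medium. Among neighbours in that order, the arrays of wer myb23 and wild type, and of wild type and scm, overlapped on salt, as did those of scm and wer myb23 on standard medium. The gap between the lowest salt group and the highest standard group was that between the salt and standard arrays of cpc try itself, 479 against 219 at its narrowest. A scale-free reading gave the same order. AT1G16850 stood above 86.8% and 85.1% of the 22746 probe sets on the cpc try salt arrays, against 91.8% to 94.0% on the other 6 salt arrays. On standard medium it stood above 70.8% and 73.3% of them in cpc try, against 47.7% to 68.9% in the other genotypes.

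On the log2 scale used for the model, log2(signal + 4.10), the salt response of AT1G16850 was 1.28 ± 0.23 in cpc try, 3.36 ± 0.23 in wer myb23, 2.83 ± 0.23 in scm and 3.69 ± 0.23 in wild type (SE from a limma fit to all 16 arrays, n = 2 arrays per medium). The cpc try response was smaller than the mean of the other 3, which was 3.29, by 2.01 ± 0.26 (SE, a difference of -2.01). Against single genotypes the difference was -2.08 ± 0.32 for wer myb23, -1.55 ± 0.32 for scm and -2.41 ± 0.32 for wild type (SE). These values chose the gene, so they describe it and no test is given for them.

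The smaller response had parts on both media. On salt the log2 level in cpc try differed by -1.11 ± 0.18 from the mean of the other 3 genotypes, and on standard medium by 0.91 ± 0.18 (SE). On the log2 scale, the lower salt level accounts for 55% of the difference between responses and the higher standard level for 45%. In signal units the gap was wider on salt (507 in cpc try against 1103 in the others) than on standard medium (207 against 113). Of the 17059 probe sets, 0.164% had both cpc try arrays below all 6 others on salt and above all 6 others on standard medium. Each part alone was common: 10.4% had both below on salt, and 9.72% had both above on standard medium.

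Across all probe sets, 24 (0.141%) passed in the comparison of the cpc try salt response with the mean of the other 3 (limma, adjusted p under 0.05), 12 with a larger and 12 with a smaller response in cpc try. The count includes AT1G16850, whose place in it is no test, since the gene was chosen for this difference. That count was unsteady. It ranged from 5 without standard replicate 2 of scm to 90 without salt replicate 1 of cpc try, and moved by over 1.5 times on leaving out 9 of the 16 arrays. By size alone, 104 probe sets, AT1G16850 included, had a difference as low as that of AT1G16850 or lower. The value for AT1G16850 itself stayed between -2.12 and -1.91 when single arrays were left out.

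Among the 3 genotypes that the choice did not set against one another, 9 differences of AT1G16850 were tested in the same fit, and 0 passed (limma, adjusted p from 0.249 to 0.998, Benjamini-Hochberg over all probe sets of each comparison). At an unadjusted p under 0.05, 2 of the 9 would pass, both of scm against wild type. Few probe sets passed in these comparisons. For the salt response, 0.00586% passed in wer myb23 against wild type and 0% in both scm comparisons. For the salt level, 0.205% passed in wer myb23 against wild type, 0.00586% in scm against wild type and 0.276% in scm against wer myb23. For the standard level the shares were 0.0879%, 0.0528% and 0.0997% in the same order of comparisons. The salt response in scm differed from that in wild type by -0.86 ± 0.32 (SE, limma adjusted p = 0.998, unadjusted p = 0.014), with a 95% interval from -1.53 to -0.19. The salt response in wer myb23 differed from that in wild type by -0.32 ± 0.32 (95% interval from -0.99 to 0.35), and scm from wer myb23 by -0.54 ± 0.32 (95% interval from -1.21 to 0.13).

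On standard medium the level in scm differed from that in wild type by 0.83 ± 0.23 (SE, limma adjusted p = 0.249, unadjusted p = 0.00151). The level in wer myb23 differed from that in wild type by 0.47 ± 0.23 (SE, limma adjusted p = 0.581). Both standard arrays of scm and both of wer myb23 lay above both of wild type, but the adjusted p missed the threshold. On salt the differences were smaller, with 0.15 ± 0.23 for wer myb23 against wild type, -0.03 ± 0.23 for scm against wild type and -0.18 ± 0.23 for scm against wer myb23 (SE). The 95% intervals of the salt levels lay between -0.65 and 0.62, which leaves room for differences of that size.

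AT1G16850 was among the strongly salt-induced genes of these root tips. Its response averaged over the 4 genotypes was 2.79 ± 0.11 on the log2 scale (SE, 8 arrays per medium), rank 38 from the top of 9456 genes. Of the 20 genes with the largest averaged salt rise, 14 had a smaller response in cpc try, with a median difference of -0.57 on the log2 scale and a range from -1.92 to 1.42. The median over all probe sets was -0.01. In this comparison 2 of the 20 passed, AT2G41190 downward and AT1G05340 upward, where 0.0703% of all probe sets passed in each direction.

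Of 16 other genes whose averaged rise lay within 0.25 of that of AT1G16850, a window chosen after the data were seen, 9 had a smaller response in cpc try. Of all 17059 probe sets, 8676 had a smaller response. The median difference of the 16 was -0.27 and their range -0.89 to 1.53. Of the 16, 0 passed (limma), where 0.141% of all probe sets passed, so that count says little. At an unadjusted limma p under 0.05, 3 of the 16 would pass, 2 of them below 0. Of all probe sets, 708 below 0 and 747 above 0 would pass. None of these 16 genes or of the 20 largest rises had both cpc try arrays below the others on salt and above the others on standard medium. Only 0.164% of all probe sets had that arrangement, so its absence from sets this small says little.

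**Figure D2:**
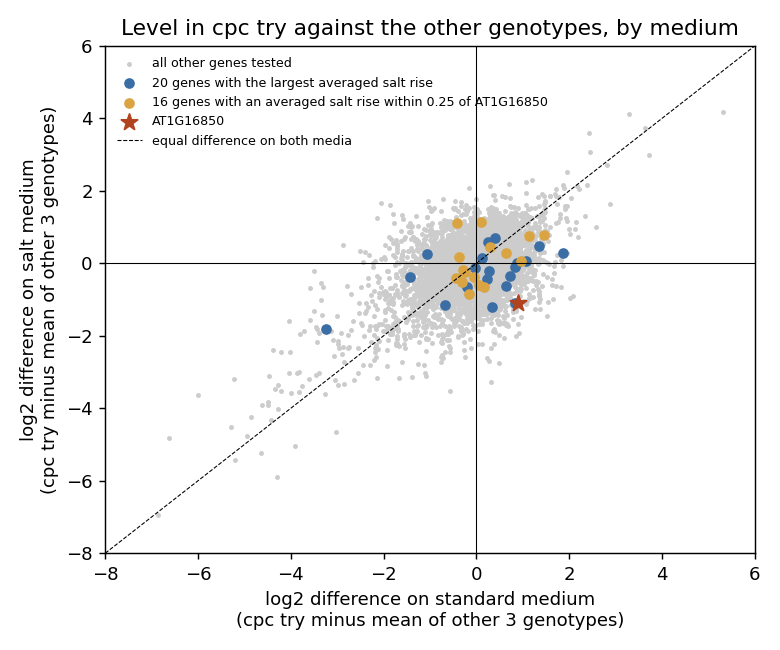
Log2 difference in level between cpc try and the mean of the other 3 genotypes on standard medium (horizontal) and on salt (vertical) for 9456 genes, with strongly salt-induced genes coloured. AT1G16850 (star, 0.91 and -1.11) is lower on salt and higher on standard medium in cpc try, and lies below the dashed line of equal difference.

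AT2G41190, which has no role in the annotation used here, differed from AT1G16850 in where its response fell short. On salt it read 1910 and 2189 in cpc try, against 1367 to 2173 in the other 6 arrays, so the genotypes overlapped. On standard medium it read 493 and 436 in cpc try, against 100 to 149 in the others. Its salt response was smaller in cpc try by 1.57 ± 0.20 (SE, a difference of -1.57, limma adjusted p = 0.0012).

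AT5G17850, likewise without a role here and also among the genes most like AT1G16850, came closest to AT1G16850 in size among the 20. On salt it read 265 and 155 in cpc try, below all 6 others, which ran from 352 to 614. On standard medium it read 62.3 and 33.5 in cpc try, overlapping the 11.1 to 37.7 of the others. Its difference was -1.92 ± 0.44 (SE). AT1G05340 went the other way, with a difference of 1.42 ± 0.26 (SE, limma adjusted p = 0.0257), although its signal in cpc try was below that of every other genotype on both media. It read 2034 and 2543 on salt in cpc try, against 6318 to 10271 in the others, and 78.4 and 50.6 on standard medium, against 422 to 929.7. The call for AT1G05340 was lost on leaving out any of 6 arrays, with a pseudocount of 32 and with quantile normalization.

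Of the other genes among the 20 with the lowest and highest differences, AT1G31750 had -1.55 ± 0.93, CCL 1.32 ± 0.78 and AT1G68620 1.07 ± 0.46 (SE), and none of these 3 passed. The AT1G31750 difference was -3.09 without cpc try standard replicate 1 and -0.0042 without replicate 2. The AT1G68620 difference was 0.06 without cpc try standard replicate 1 and 2.07 without replicate 2, where it passed (limma adjusted p = 0.0084).

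Of 100 listed genes of the abscisic acid and dehydration response, 11 were named in the annotation used here. Of these, 10 were among the 31 listed dehydration and late embryogenesis proteins and 1, STZ, among the 24 transcription factors. The receptors (9 listed), phosphatases and kinases (12), hormone metabolism (12) and ion transport (12) had no member analysed here, so abscisic acid signalling itself is hardly represented in the values below. All 11 rose on salt in the averaged response (limma, adjusted p under 0.05), where 13.6% of all probe sets rose. Their median averaged response was 2.85 on the log2 scale, against a median of 0.00 over all probe sets. In the cpc try difference 0 of the 11 passed (limma), where 0.141% of all probe sets passed, so a count of 0 says little. Of the 11, 9 were below 0, against 8676 of all 17059 probe sets. The gene sets share members, so this count is not independent of those given above for strongly induced genes. LEA4-5, LEA18, AT3G02480, AT3G15670 and AT3G17520 were also among the genes with the largest averaged salt rise. STZ and COR15A were also among the genes whose averaged rise lay near that of AT1G16850. All of these shared genes had a difference below 0. At an unadjusted limma p under 0.05, 3 of the 11 would pass, all below 0, against 708 of all probe sets below 0. The median difference of the 11 was -0.86, against -0.01 over all probe sets. Some of the 11 were dim on standard medium, while LTI30 and COR47 were bright on all arrays. In scm on standard medium LEA18 read 6.54 and 9.18 and AT3G15670 3.04 and 3.12, below 21.7, the 25th percentile of all signals. The differences of such dim genes are less certain.

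LEA4-5, a late embryogenesis abundant protein of the kind that shields drying cells, read 3205 and 3388 on salt in cpc try, against 2702 to 4368 in the other genotypes. On standard medium it read 89.1 and 87.0 in cpc try, against 25.7 to 64.4 in the others. The salt arrays overlapped between genotypes and the cpc try standard arrays were the highest. Its cpc try difference was -1.02 ± 0.24 (SE), and its averaged rise 5.93 ± 0.11 (SE).

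STZ, a transcriptional repressor with zinc fingers and the only transcription factor of the list that was named, showed the same arrangement. It read 552 and 409 on salt in cpc try, against 335 to 668 in the others, and 131 and 78.0 on standard medium, against 40.8 to 66.0. Its difference was -0.89 ± 0.32 (SE, limma adjusted p = 0.369). AT3G02480, listed among the late embryogenesis genes, had a difference of -1.08 ± 0.29 (SE, limma adjusted p = 0.201), which passed without cpc try salt replicate 1 (-1.44, adjusted p = 0.0443). The dehydrins LTI30 and COR47 were nearer to 0, at -0.12 ± 0.20 and 0.06 ± 0.16 (SE). For the log2 level on salt, LEA4-5 differed by 0.06 and STZ by 0.07 between cpc try and the mean of the others, where AT1G16850 differed by -1.11.

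**Figure D3:**
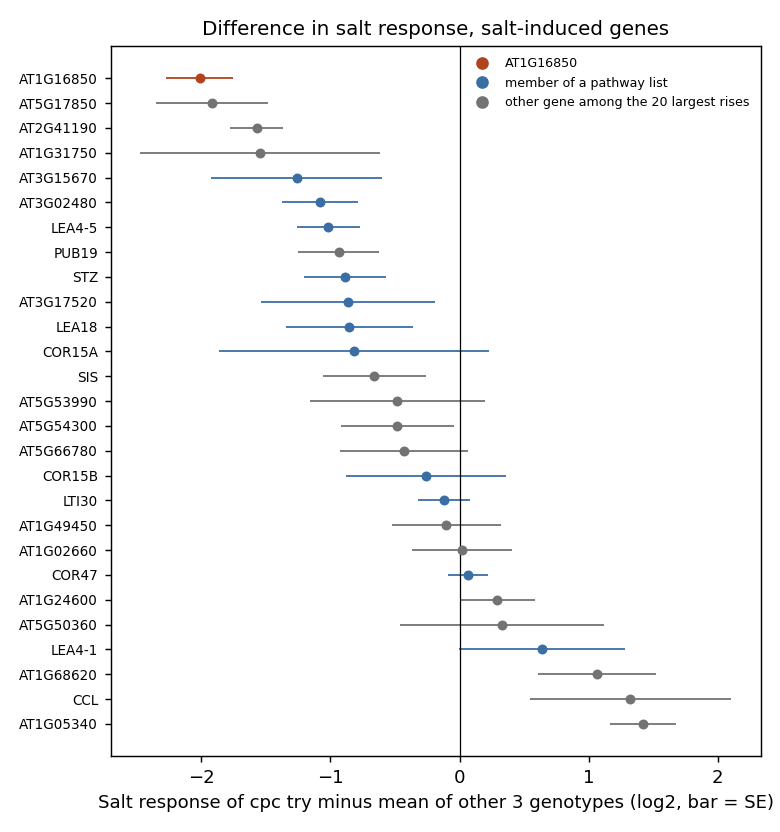
Salt response of cpc try minus the mean response of the other 3 genotypes (log2, bars are SE) for AT1G16850, the 20 genes with the largest averaged salt rise and the 11 pathway genes. AT1G16850 was chosen for this value (-2.01), and the other genes run from -1.92 for AT5G17850 to 1.42 for AT1G05340.

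The genes most like AT1G16850 were ranked by Pearson correlation of log2 values over the 16 arrays, which share the strong split between media. The top 6 were AT1G27200 (r = 0.97), CHI (0.97), AT5G17850 (0.97), LEA4-5 (0.96), AT1G21790 (0.96) and AT4G36010 (0.95). CHI is annotated as a chitinase, an enzyme that cleaves chitin. Only 3 of the 6 stayed in the top 6 by Spearman's rho, and 3 by correlation over the 8 group means.

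In CHI the arrangement of AT1G16850 recurred at a smaller size. It read 318 and 303 on salt in cpc try, against 342 to 544 in the others, and 176 and 155 on standard medium, against 101 to 141. AT1G21790 read 156 and 154 on salt in cpc try, against 234 to 328, and 78.0 and 82.3 on standard medium, against 33.5 to 77.2. For both genes, the cpc try arrays lay below all others on salt and above all others on standard medium, and the other 4 genes did not meet both. By group means, cpc try was the lowest salt group and the highest standard group in all of the 6 but LEA4-5. Since these genes were picked for their likeness to AT1G16850, their cpc try differences, those of AT5G17850 and LEA4-5 above included, are a description.

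**Figure D4:**
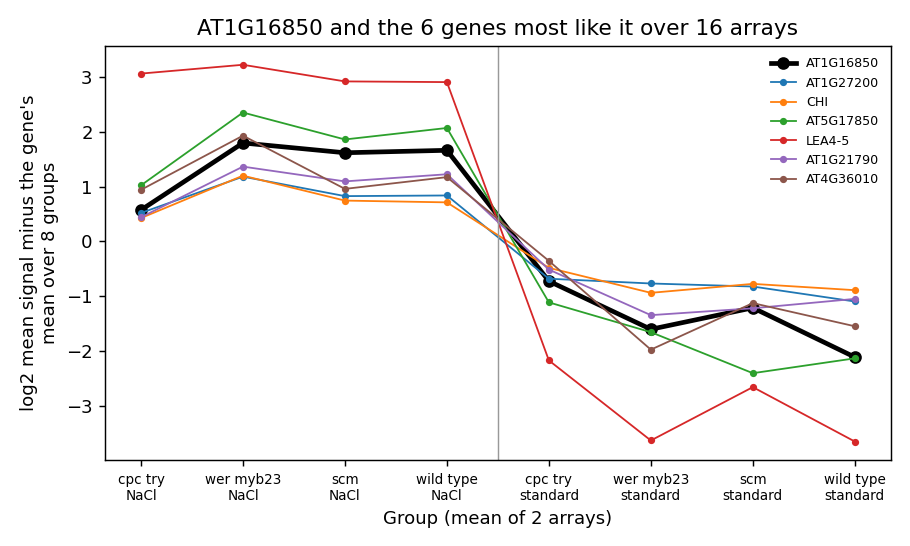
Log2 mean signal of each group minus the gene's mean over the 8 groups, for AT1G16850 (black) and the 6 genes most like it; points are means of 2 arrays, and lines only join the points of a gene. In AT1G16850 and in 5 of the 6 genes cpc try is the lowest of the salt groups and the highest of the standard groups; in LEA4-5 it is the highest of the standard groups only.

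With the mean of each medium subtracted, so that only differences among genotypes and replicates remained, the most alike genes were AT5G19760 (r = 0.91), AT1G53380 (0.89), AT1G50570 (0.83) and AT5G56220 (0.82), again over 16 arrays. None of these 4 is given a role in the annotation used here. AT5G19760, a bright transcript, read 5417 and 5479 on salt in cpc try, against 6328 to 7158 in the others, and 7909 and 8797 on standard medium, against 6550 to 8447. Its averaged salt response was -0.23 ± 0.06 (SE), so it did not share the salt induction of AT1G16850. All 4 genes were picked for a genotype pattern like that of AT1G16850, so that likeness is a description. AT1G53380 read 135 and 129 on salt in cpc try, against 153 to 195, and 252 and 258 on standard medium, against 122 to 214.

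Of 6 listed genes with nearby locus numbers, 5 were tested. AT1G16840, which adjoins AT1G16850 on one side, rose on salt by 1.10 ± 0.10 averaged over the genotypes (SE, limma adjusted p = 1.85e-08). It read 366 and 460 on salt in cpc try, against 493 to 647 in the others, and 194 and 172.5 on standard medium, against 213.7 to 295. In cpc try AT1G16840 was thus lowest on both media, and its salt response differed by 0.06 ± 0.23 (SE, limma adjusted p = 0.975). AT1G16860, on the other side, had an averaged response of -0.11 ± 0.13 (SE, limma adjusted p = 0.618). The averaged responses of AT1G16820, AT1G16830 and AT1G16870 did not pass either (limma adjusted p = 0.568, 0.259 and 0.894).

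Markers of root hair cells moved with the cpc try arrays. The summed signal of the 4 measured of 14 markers ran from 719 to 760 on salt in cpc try, against 2815 to 3737 in the other genotypes. On standard medium it ran from 685 to 776 in cpc try, against 3427 to 4305 in the others. Most of what remained in cpc try came from SCN1, a regulator of hair initiation sites, at 606 to 732. The hair expansin EXPA7 read 4.96 to 41.7 in cpc try, against 722 to 1171 in the other 12 arrays. EXPA18, another hair expansin, read 6.10 to 34.0 in cpc try, against 329 to 1445, and the endoglucanase GH9C1 4.21 to 39.6, against 510 to 847. None was at 0, and the 25th percentile of all signals was 21.7. MYC1 (AT4G00480), a basic helix-loop-helix partner of the epidermal MYB proteins, read 4.24 to 38.0 in cpc try, against 165 to 418. The part of the hair cell difference in the levels of AT1G16850 was not tested.

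For RNA quality, the GAPDH control gave a log2 ratio of its 3′ over its 5′ probe set of 2.79 and 1.46 in the cpc try salt arrays, the first above and the second below the 1.65 to 2.17 of the other salt arrays. The AT1G16850 signal in those cpc try arrays was 536 and 479. On standard medium the ratio was 1.99 and 1.65 in cpc try, within the 1.45 to 2.43 of the others. The actin control, as the log2 ratio of its 3′ over its middle probe set, read 2.77 and 1.36 in the cpc try salt arrays, against 2.00 to 2.56 in the others, and 1.91 and 1.69 on standard medium, against 1.70 to 2.52. The 25S ribosomal RNA signal moved with the medium. It was 8256 and 8190 on salt in cpc try and 5123 to 10300 in the others, and 4517 and 3180 on standard medium in cpc try and 2012 to 5229 in the others. The part of RNA quality in the salt responses was not tested.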

How the data were processed

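Each array gives a signal per probe set, a linear intensity that the authors computed with MAS5, according to the submitters' processing notes. Its version and scaling target are not stated there. The mean after trimming 2% at each end was 250.03 on all 16 arrays.

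Arrays were grouped by title. After removal of 64 control probe sets, log2(signal + 4.10) was taken, with the 10th percentile of the table as pseudocount, and probe sets with a mean under the 25th percentile were dropped, which left 17059. limma 3.58.1 in R 4.3.3 fitted 1 mean per group (8 residual degrees of freedom), with moderated variances that follow mean signal. P-values were two-sided, with Benjamini-Hochberg adjustment over all probe sets and a threshold of 0.05. The number of arrays limits the precision. The procedure was tested on simulated data with known changes in the cpc try difference. It recovered 26% of true log2 changes of 1 and 65% of changes of 2, with 7 false calls. A count of 0 passing therefore does not show that a difference is absent.

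Names came from the platform annotation, updated through RefSeq, and the brightest probe set stood for a gene. AT1G16850 and the lists were chosen with earlier results of these data known. Named genes were the 6 most alike over 16 arrays, the 4 most alike after subtracting medium means, neighbours, and the 3 lowest and 3 highest cpc try differences among the 20 largest averaged rises. Of each list, up to 4 called members, or else the 2 with the largest averaged response, were named, with TRY, EXPA7 and EXPA18. LTI30, COR47, SCN1 and GH9C1 were chosen after their values were seen. List members not named in the annotation were not analysed here.

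Replicate numbers were not treated as pairs: deviations of same-numbered arrays correlated with r from -0.034 to 0.052 over 28 pairs of groups. Alternatives changed the pseudocount, filter, scaling, trend, replicate block and arrays included.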

Additional observations from a re-analysis of the deposited data

Results flagged for a closer look

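The salt response of 3 named genes other than AT1G16850 differed between cpc try and the mean of the other 3 genotypes in limma's test of that difference. AT2G41190 differed by -1.57 (adjusted p = 0.0012), AT1G05340 by 1.42 and EXPA7 by 1.80 (adjusted p = 0.0257 each), all on the log2 scale. AT2G41190 passed on leaving out any single array, and AT1G05340 and EXPA7 lost the call on leaving out 6 and 8 of the 16. EXPA7 read 41.7 and 17.3 on salt in cpc try and 5.84 and 4.96 on standard medium, of which 3 lay below 21.7, the 25th percentile of all signals. With a pseudocount of 32, EXPA7 differed by 0.76 (adjusted p = 0.316) and AT1G05340 by 0.99 (0.0968), and with quantile normalization AT1G05340 differed by 1.26 (0.0675), so these calls were lost there too. None of these 3 calls was kept without the trend in the spread, where the adjusted p was 0.107, 0.311 and 0.294.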

How the results depend on the processing

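The cpc try difference of AT1G16850 held in size and sign under all alternatives run, and all 9 comparisons among the other genotypes stayed short of the threshold. Without the trend in the spread, however, no probe set with a smaller response in cpc try passed, so AT1G16850 was not among the calls there. With a pseudocount of 32 the salt response of AT1G16850 was 3.08 in wer myb23 and 3.31 in wild type. Leaving out single arrays gave 2.50 to 3.15 for scm, the ends coming without its standard replicates 2 and 1. The salt level of scm minus wild type turned to 0.11 after median-centring and ran from -0.25 to 0.19 without single arrays, that of wer myb23 minus wild type from -0.0697 to 0.36, the ends coming without wild type salt replicates 1 and 2. The count of 24 probe sets in the cpc try difference was 1 without the trend and 29 with the replicate block. It was 7 without wild type standard replicate 2, 38 without wild type salt replicate 1, 11 and 12 without wer myb23 standard replicates 1 and 2, and 90 and 59 without cpc try salt replicates 1 and 2. It was 5 without scm standard replicate 2, and 7 and 12 without scm salt replicates 1 and 2. Of the pathway genes, 1 passed in that difference after quantile normalization, LEA4-5, and 0 to 1 without single arrays. Among the 20 largest rises AT5G17850 (adjusted p = 0.0959) passed with a pseudocount of 32 (0.0467) and without cpc try salt replicate 1 (0.0443) or scm standard replicate 1 (0.0476); it and LEA4-5 were also picked for likeness. With the filter at the median, 6 pathway genes rose in the averaged response. That count covers only the pathway genes bright enough to stay in the test under that filter. Of the 6 most alike genes 3 remained by Spearman's rho and 3 by group means. The EXPA18 difference was -0.0098 with a pseudocount of 1 and ran from -0.74 to 1.12 without single arrays, that of AT1G16840 from -0.10 to 0.22. The averaged TRY response was -0.0832 with a pseudocount of 32 and ran from -0.0794 to 0.39 without single arrays. Of all calls by direction, 51.5% in the averaged response were upward, and 43.2% after median-centring. The causes were not tested. No other call changed with the replicate block except that the averaged EXPA7 response passed (0.37, adjusted p = 0.0251). Signal over background limits the dim hair markers in cpc try and the pathway genes that were dim on standard medium.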
